A study of Lathyrus oleraceus with 4 samples.

Results

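In the developing seeds of both pea cultivars, 243 of the 77269 assembled unigenes were well covered by reads at 10 days after pollination (DAP) and had almost none at 25 DAP. They were selected on their read counts in all 4 libraries, with at least 100 reads in each library of 10 DAP and at most 3 reads in each library of 25 DAP. The fall between the stages is therefore how the group was defined and not a finding about it. The group is called the 10 DAP unigenes here. A unigene is a transcript sequence assembled from the reads without a genome, so it can be a whole transcript, a fragment or a splice or allelic form.

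The libraries came from whole seeds of field-grown Zhewan 1, a vegetable pea harvested immature for its sweet seeds, and Zhongwan 6, a grain pea, each at 10 and 25 DAP. No genetic modification is described for either cultivar. Seeds of many plants were pooled for each sample, and 1 library stands for each cultivar and stage. The sources describe 3 biological replicates for a sample and do not say how they entered the libraries, so no difference given here has a replicate check. Between 50086351 and 70912839 reads were counted for a library, and a count of 0 allows up to 3 reads, which on a sequence of 1 kb is an RPKM between 0.0423 and 0.0599 (counting error only). RPKM is the number of reads for each kb of unigene, scaled to the total counted in the library. These totals exceed the clean reads given for each library, which means that some reads count on several unigenes, and counted reads are not independent molecules.

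In legume seeds, early development is a time of cell division and morphogenesis, in which the embryo takes shape within the endosperm and the seed coat grows around both. The cells of the embryo later stop dividing, expand and fill with starch and storage protein, while the endosperm is largely consumed. Transcripts that belong to dividing cells or to short-lived seed tissues are commonly lost during this transition. In whole seeds, fewer cells of a type and less RNA in each cell cannot be told apart.

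At 10 DAP the 10 DAP unigenes held 109611 reads in Zhewan 1 and 140322 in Zhongwan 6, which are 0.219% and 0.231% of the reads counted. At 25 DAP they held 49 and 100 reads. In the Zhewan 1 library of 25 DAP 214 of the 243 had no read and 29 had 1 to 3, and in the Zhongwan 6 library 186 had none and 57 had 1 to 3. No read was counted at 25 DAP in either cultivar for 166 of them (68.3%). A further 32 had 1 read over both libraries, 26 had 2, 13 had 3 and 4 had 4. The most was 5 reads, for comp17773_c0_seq1 and comp19968_c0_seq1, chosen after their values were seen. For those with no read at 25 DAP, the level, as a share of counted reads, was at least 37.1-fold to 1161-fold lower than at 10 DAP in Zhewan 1 (median of these bounds 89.2, 214 unigenes). In Zhongwan 6 it was at least 39.2-fold to 1722-fold lower (median 137, 186 unigenes), with 0 reads in a library taken as 3.

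The 10 DAP unigenes were of moderate level. Their RPKM at 10 DAP ranged from 1.04 to 47.2 in Zhewan 1, with a median of 4.56 and quartiles of 3.14 and 9.56. In Zhongwan 6 it ranged from 0.985 to 197, with a median of 5.78 and quartiles of 4.01 and 10.9. The 21806 unigenes with at least 100 reads in both libraries of 10 DAP, which include the 243, had medians of 4.54 and 6.06. The 10 DAP unigenes thus stood at the middle of that set in each library, and none was among the very abundant sequences of the seed, which reached 28579 RPKM (Zhewan 1) and 30099 RPKM (Zhongwan 6). An RPKM of at least 10 was found for 58 of them in Zhewan 1 and for 73 in Zhongwan 6. At least 200 reads in both libraries were counted for 138, at least 500 for 45 and at least 1000 for 15, while 60 had under 150 in the lower library.

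The sequences were between 235 and 4086 bp long, with a median of 1089 bp and quartiles of 797 and 1442.5 bp. The median was 529 bp for all unigenes and 1690 bp for those with at least 100 reads in both libraries of 10 DAP. Length enters the number of reads, so it is not independent of how the group was chosen. Under 500 bp were 16 of the 243 (6.58%) and 498 of the 21806 (2.28%), a set that also holds many unigenes with more reads. No test was made of this, since sequences of the same gene are not separate observations. The longest were comp15531_c0_seq1 (4086 bp), comp41809_c0_seq1 (3330 bp) and comp19141_c0_seq1 (2672 bp). With 437 and 406 reads at 10 DAP, the first of these had an RPKM of only 2.14 and 1.63. The shortest were comp23745_c0_seq1 (235 bp), comp23745_c0_seq4 (258 bp) and comp6113_c0_seq1 (277 bp), and comp6113_c0_seq1 had the highest RPKM of the group in Zhewan 1.

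The same thresholds with the stages exchanged found 191 unigenes present only at 25 DAP, with a median length of 983 bp. The early group was the larger by count and its median length the greater, and neither difference was tested.

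The 10 unigenes with the highest mean RPKM at 10 DAP show how the group looks read by read. The highest was comp19314_c0_seq1 (369 bp), which had 226 reads in Zhewan 1 and 4435 in Zhongwan 6 at 10 DAP and 0 in both libraries of 25 DAP. Its RPKM at 10 DAP was 12.2 in Zhewan 1 and 197 in Zhongwan 6, so that its place in the group rests on the Zhongwan 6 library. The level was at least 84.0-fold lower at 25 DAP in Zhewan 1 and at least 1722-fold lower in Zhongwan 6.

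Next was comp40047_c0_seq7 (661 bp), with 698 reads in Zhewan 1 and 2225 in Zhongwan 6 at 10 DAP, and 0 and 2 at 25 DAP. The unigene comp6113_c0_seq1 had 655 and 402 reads at 10 DAP and 0 and 0 at 25 DAP, and comp20570_c0_seq1 (625 bp) had 947 and 1493 at 10 DAP and 0 and 2 at 25 DAP. In comp30986_c0_seq1 (765 bp) the reads were 121 and 2541 at 10 DAP and 3 and 1 at 25 DAP. The cultivars thus differed in both directions among the most abundant of these sequences.

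The remaining ones had ratios of Zhongwan 6 to Zhewan 1 from 0.505 to 1.41. In comp24914_c0_seq1 (1291 bp) 2099 reads were counted in Zhewan 1 and 1289 in Zhongwan 6 at 10 DAP, and 0 in both at 25 DAP. In comp31988_c1_seq1 (838 bp) they were 1015 and 1232 at 10 DAP and 0 at 25 DAP, which is an RPKM of 24.2 for each cultivar. The pair comp23745_c0_seq3 (348 bp) and comp23745_c0_seq4, from the same component, had no read at 25 DAP, while at 10 DAP Zhewan 1 gave 551 and 482 reads and Zhongwan 6 gave 519 and 398. In comp40632_c0_seq117 (843 bp) the reads were 853 and 1461 at 10 DAP and 0 and 3 at 25 DAP.

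**Figure D1:**
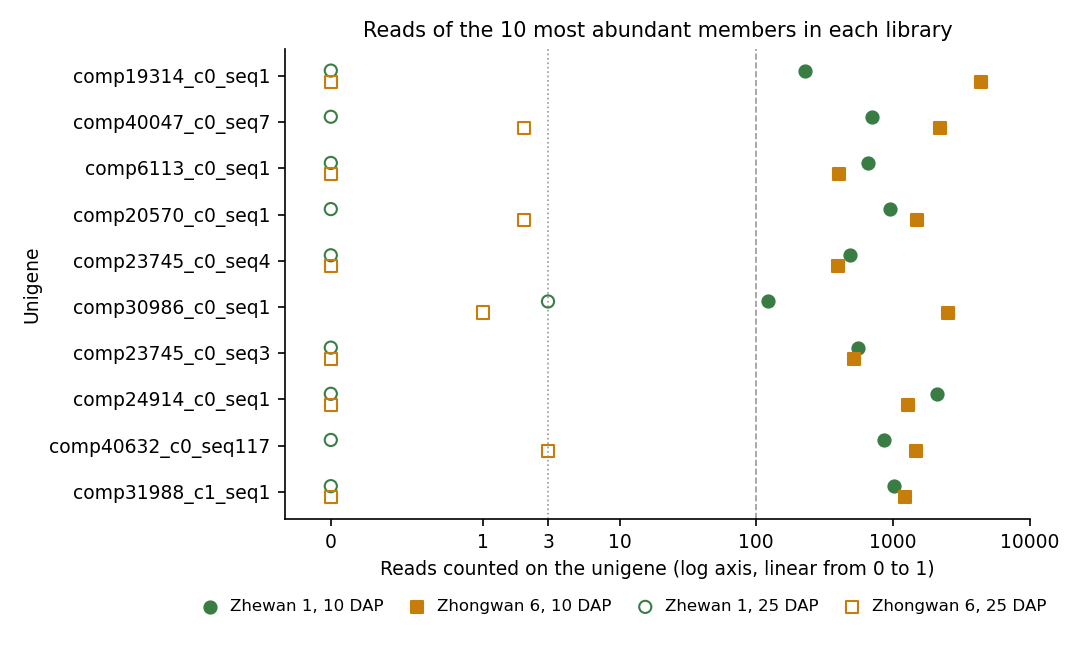
Reads counted in each of the 4 libraries (horizontal axis, logarithmic and linear from 0 to 1) for the 10 unigenes with the highest mean RPKM at 10 DAP. Filled symbols are 10 DAP and open symbols 25 DAP, circles are Zhewan 1 and squares Zhongwan 6, with 1 library for each. The dashed and dotted lines mark the 100 and 3 reads that defined the group. The largest gap between cultivars at 10 DAP is that of comp30986_c0_seq1, with 121 and 2541 reads, and the open symbols lie at 0 to 3.

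Only 1 of the 243 could be given a gene name. The study's table of best matches to Medicago truncatula could be read for 1998 rows, which name 1121 unigenes of the expression table, and the 10 DAP unigene among them is comp10982_c0_seq1 (796 bp). Its match, Medtr7g079010.1, is annotated as WRKY DNA-binding protein 24. WRKY proteins are plant transcription factors that bind W-box elements in promoters. They are best known from defence and senescence, and in Arabidopsis some of the family act in the growth of the endosperm and the seed coat. The unigene had 390 reads (RPKM 9.78) in Zhewan 1 and 391 (RPKM 8.07) in Zhongwan 6 at 10 DAP, and 0 reads in both libraries of 25 DAP. Its level was at least 145-fold lower at 25 DAP in Zhewan 1 and at least 152-fold lower in Zhongwan 6. Between the cultivars at 10 DAP the ratio was 0.825 (95% exact Clopper-Pearson interval 0.715 to 0.952), short of 2-fold, and with median-ratio scaling it was lower still, at -0.68 on the log2 scale.

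The other WRKY unigenes of the readable part kept reads at 25 DAP or were scarce throughout. The unigene comp12496_c0_seq2 (1125 bp), matched to WRKY DNA-binding protein 70, a regulator of defence and senescence in Arabidopsis, had 58 reads in Zhewan 1 and 271 in Zhongwan 6 at 10 DAP, and 27 and 60 at 25 DAP. It was lower at 25 DAP by the thresholds used below in both cultivars, with log2 ratios of -1.26 and -2.40. A second unigene with the same match, comp11678_c0_seq1, had 9 and 30 reads at 10 DAP and 4 and 14 at 25 DAP, and comp12540_c0_seq1, a WRKY family transcription factor, had at most 10 reads in any library. Neither passed the thresholds.

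Calls between libraries required an FDR no higher than 0.001 and RPKM that differed 2-fold or more. The FDR came from Fisher's exact test (two-sided) of the counts, with Benjamini-Hochberg adjustment across every unigene having a read in the pair. The test compares libraries and not the conditions, and reads counted more than once make its p-values too small. All 243 are called lower at 25 DAP in both cultivars because the read thresholds ensure it, against 9.42% of the 74253 unigenes tested in Zhewan 1 and 16.0% of the 74915 in Zhongwan 6. Nothing is read from that difference. Higher at 25 DAP were 20.7% in Zhewan 1 and 9.08% in Zhongwan 6.

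The readable annotation places this WRKY unigene among 32 transcription factor unigenes, of which 11 were lower and 4 higher at 25 DAP in Zhewan 1, and 14 were lower and 3 higher in Zhongwan 6. It is itself counted as lower in both, which the read thresholds ensure. Over all unigenes tested, 9.42% were lower and 20.7% higher in Zhewan 1, and 16.0% and 9.08% in Zhongwan 6. The lists are short, and none was tested against these shares. None of the unigenes of the other lists was a 10 DAP unigene. Since the group is 243 of 77269 unigenes, lists this short can easily hold none, and nothing is read from the absence. The cell division list (kinesins, tubulins and histones, 8 unigenes) had 3 higher and 0 lower in Zhewan 1 at 25 DAP, with 0 and 1 in Zhongwan 6. The cell wall list (16) had 4 higher and 1 lower in Zhewan 1 and 1 and 0 in Zhongwan 6, and the hormone list (6) had 2 and 1, and 1 and 2. Of 10 unigenes annotated as maturation and storage proteins, 3 were higher and 2 lower in Zhewan 1, and 4 and 3 in Zhongwan 6. Of 8 photosynthesis unigenes, 4 were higher in Zhewan 1 and 2 in Zhongwan 6, and 0 were lower in either. These lists cover a small part of the table, and a further 242 of the 10 DAP unigenes carry no annotation in it, so neither their roles nor the seed tissue they come from could be checked here.

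The identifiers also give the Trinity component of each unigene. A component gathers sequences that the assembler built from a common set of reads, often the alternative forms of a gene or of close relatives. The 243 unigenes belong to 164 components. In 82 of them the 10 DAP unigene was the only sequence, 15 components held 42 sequences that all belonged to the group, and in the other 67 components 119 of the 10 DAP unigenes stood beside 421 further sequences, called mates here. The share alone in a component was 33.7%, against 37.4% of the 21806 unigenes with at least 100 reads in both libraries of 10 DAP and 68.9% of all unigenes. It was 29.3% for the 191 unigenes present only at 25 DAP.

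Several components held many 10 DAP unigenes. The most, 10 of 13 sequences, were in comp36417_c0, with lengths of 770 to 1668 bp, 102 to 223 reads in Zhewan 1 and 193 to 495 in Zhongwan 6 at 10 DAP, and 0 at 25 DAP. Its mates held 158 and 294 reads at 10 DAP and 0 and 0 at 25 DAP, so that the whole component was without reads at the later stage. Its longest member, comp36417_c0_seq6, had 223 and 495 reads, and its shortest, comp36417_c0_seq23, 102 and 193.

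In comp40219_c0, 9 of 13 sequences of 1818 to 2060 bp had 2774 to 3126 reads in Zhewan 1 and 1396 to 1585 in Zhongwan 6 at 10 DAP, the highest read numbers in Zhewan 1 of the whole group. The highest of them, comp40219_c0_seq16, was at least 1161-fold lower at 25 DAP in Zhewan 1. The mates of these 9 held 2550 and 2105 reads at 10 DAP and 231 and 543 at 25 DAP. All 7 sequences of comp32912_c0 (1248 to 1785 bp) were in the group, with 224 to 265 reads in Zhewan 1 and 415 to 529 in Zhongwan 6 at 10 DAP, and 0 and 2 reads each at 25 DAP. Since reads were counted on more than 1 unigene, the reads of these sequences may be partly the same. Which reads they share was not tested, and members of a component are not separate observations.

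A sequence that met the read thresholds is in the group and cannot be a mate. Reads on mates at 25 DAP are therefore partly fixed by definition. Mates kept reads at 25 DAP in most components that had them. They were at or under 3 reads in each library of 25 DAP in 7 components with 16 of the 10 DAP unigenes, and at 100 reads or more in both in 47 components with 84 of them. Where the 10 DAP unigenes had mates, they carried a median of 30.9% of the component's reads at 10 DAP in Zhewan 1 and 28.3% in Zhongwan 6. They carried under 50% in both cultivars in 42 of the 67 components. When the reads were summed over each component, 106 components met the read thresholds, and 100 of these held 124 of the 10 DAP unigenes.

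Mates are by definition sequences that did not meet the read thresholds, so their change with stage is not independent of the choice of group. Shared reads can tie it further to that choice. Of 59 components whose mates had at least 100 reads over the 2 libraries of Zhewan 1, the summed mates were at least 2-fold lower at 25 DAP in 26, within 2-fold in 26 and at least 2-fold higher in 7, with a median log2 ratio of -0.33. Of all 6215 components of several unigenes with that many reads, 13.8% were lower and 34.1% higher. The sums over all components, here and for Zhongwan 6, take in every unigene of a component, while the mates leave out the 10 DAP unigenes. In Zhongwan 6 the mates were lower in 30, within 2-fold in 26 and higher in 4 of 60, with a median of -1.01, against 23.2% lower and 13.2% higher of 6305 components. Over the 57 components measured in both cultivars, the mates were lower in both in 20 and higher in both in 0, and they moved in opposite directions in 2. The shares of all components that did so in both cultivars were not computed, so nothing is read from these counts. Scaling by median ratios moves all log2 ratios of 25 to 10 DAP by -0.55 in Zhewan 1 and by 0.23 in Zhongwan 6. With that scaling the median over the mates was -0.88 in Zhewan 1 and -0.78 in Zhongwan 6. Lower in both were 21 components, again without a share over all components.

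**Figure D2:**
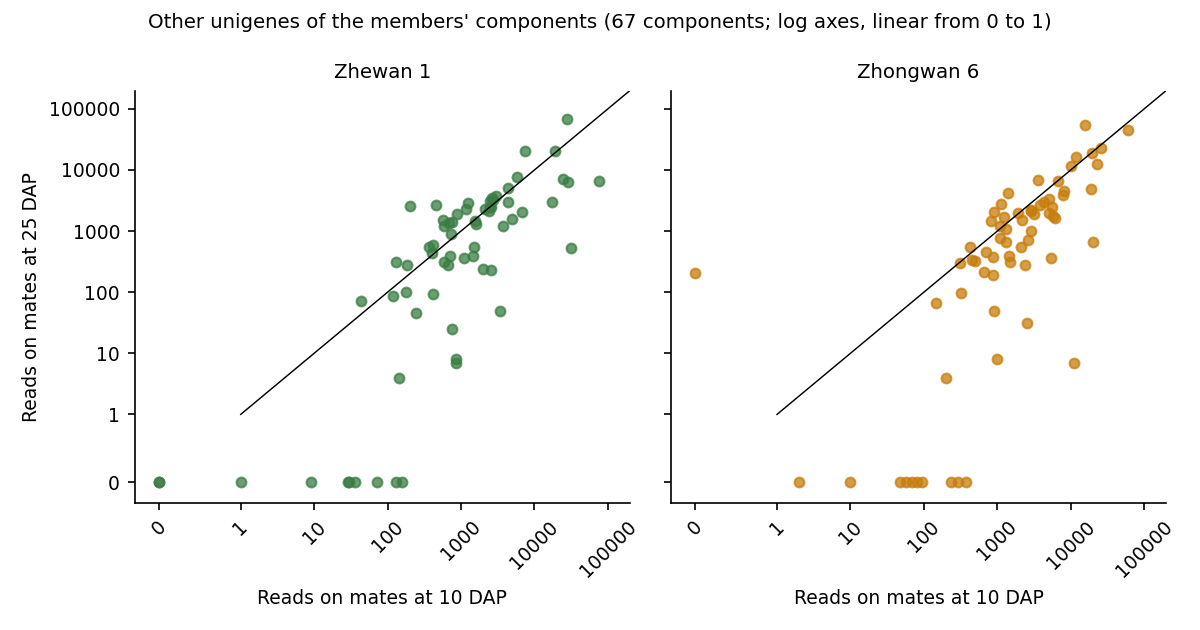
Reads at 10 DAP (horizontal axis) and 25 DAP (vertical axis) summed over the sequences that share a Trinity component with a 10 DAP unigene but are not in the group, on logarithmic axes that are linear from 0 to 1. Each point is 1 of 67 components, Zhewan 1 is on the left and Zhongwan 6 on the right, and the line marks equal reads. In 47 components the points lie at 100 reads or more at 25 DAP in both panels, and in 7 they lie at 3 or fewer in both.

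The 2 components in which the cultivars' mates moved in opposite directions were comp39376_c0 and comp39849_c0. In comp39376_c0 the mates of Zhewan 1 had 75898 reads at the early and 6726 at the late stage, and those of Zhongwan 6 had 15647 and 54237. The 10 DAP unigene of the same component, comp39376_c0_seq17 (1405 bp), had 326 reads in Zhewan 1 and 891 in Zhongwan 6 at 10 DAP and 0 at 25 DAP. It carried 0.428% and 5.39% of its component's reads at 10 DAP. Most reads of the mates in each library were on comp39376_c0_seq8 (525 bp), chosen after its values were seen, with 75765 and 15567 at 10 DAP and 3827 and 53192 at 25 DAP.

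In comp39849_c0 the 9 mates went from 859 reads to 8 in Zhewan 1 and from 1416 to 4130 in Zhongwan 6 between the stages. The component thus kept reads at 25 DAP in Zhongwan 6 and almost none in Zhewan 1. Its 4 unigenes in the group, of 1089 to 1389 bp, had 306 to 666 reads in Zhewan 1 and 234 to 333 in Zhongwan 6 at 10 DAP.

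Other 10 DAP unigenes were lost from components that stayed abundant. The mates of comp40632_c0_seq117 and comp40632_c0_seq137 (752 bp), in a component of 27 sequences, went from 28087 to 68330 reads between the stages in Zhewan 1 and from 60517 to 44684 in Zhongwan 6. With 785 and 1238 reads at 10 DAP and 0 and 3 at 25 DAP, comp40632_c0_seq137 followed its neighbour in the group closely. The mates of comp39939_c0_seq1 (910 bp) had 7503 and 11724 reads at 10 DAP and 20640 and 16312 at 25 DAP, while the unigene went from 378 and 598 reads to 0 and 0. In comp41029_c1 the mates of comp41029_c1_seq8 (429 bp) had 18868 and 25795 reads at 10 DAP and 20273 and 22582 at 25 DAP, against 205 and 261, and 0 and 0, for the unigene itself.

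In 5 components a 10 DAP unigene stood beside a sequence present only at 25 DAP by the exchanged thresholds, and these held 7 of the 191 such sequences. All of these sequences were chosen after their values were seen. In comp40119_c2 the 10 DAP unigene comp40119_c2_seq6 (673 bp) had 504 reads in Zhewan 1 and 662 in Zhongwan 6 at 10 DAP, and 0 and 1 at 25 DAP. Its mate comp40119_c2_seq1 (1202 bp) had 2 and 0 reads at 10 DAP and 1116 and 1345 at 25 DAP. The level at 10 DAP of the first (RPKM 15.0 and 16.2) was near the level at 25 DAP of the second (16.6 and 15.8). Another mate, comp40119_c2_seq15 (1310 bp), had 0 reads at 10 DAP and 493 and 1401 at 25 DAP (RPKM 6.74 and 15.1). In comp40119_c2_seq13 (787 bp) the reads were 1 and 0 at 10 DAP and 521 and 575 at 25 DAP (RPKM 11.9 and 10.3). The near match of levels in both cultivars was thus seen for comp40119_c2_seq1 only, and the others add to the component's level at 25 DAP.

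The same pattern was seen in comp38560_c1_seq1 (1037 bp), with 448 and 648 reads at 10 DAP and none at 25 DAP, beside comp38560_c1_seq19 (932 bp), with 1 and 0 reads at 10 DAP and 366 and 275 at 25 DAP. In comp40631_c1 the 10 DAP unigene comp40631_c1_seq11 (919 bp) had 178 and 371 reads at 10 DAP, and comp40631_c1_seq13 (218 bp) had 199 and 313 at 25 DAP, each with 0 at the other stage. The remaining 2 components were comp40244_c2 and comp39376_c0. These components held sequences with reads almost only at 10 DAP and others with reads almost only at 25 DAP. Both sets of thresholds used all 4 libraries, so the likeness of the cultivars follows from the selection. How often other components hold a sequence present only at 25 DAP was not compared. Other sequences of the components also had reads, and whether the sequences are forms of the same gene was not tested.

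The cultivars were compared at 10 DAP as the ratio of Zhongwan 6 to Zhewan 1, which the thresholds constrain only through the minimum of 100 reads in each library. The log2 ratio of the 243 unigenes had a median of 0.33, quartiles of -0.27 and 0.69 and a range from -1.91 to 4.11. The ratio was above 1 for 160 (65.8%) and below 1 for 83. The median was 0.40 over the 21806 unigenes with at least 100 reads in both libraries, and 74.3% of these were above 1. Scaling the libraries by median ratios lowers every log2 ratio at 10 DAP by 0.40, which turns the median of the 10 DAP unigenes to -0.073. The direction of that median therefore depends on the scaling.

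Of the 243, 28 (11.5%) were called higher in Zhongwan 6 and 25 (10.3%) lower. Among the 21806 with at least 100 reads in both libraries 14.1% were called higher and 4.25% lower, and over the 71326 with at least 1 read 10.4% and 3.07%. The 25 calls lower in Zhongwan 6 came from 13 components, among which comp40219_c0 gave 9, while the 28 higher came from 25 components. With 1 unigene taken for each component, 24 of 164 (14.6%) were called higher and 12 (7.32%) lower. The 21806 set beside them (14.1% and 4.25%) were not reduced in that way, so the shares are not alike in kind. Median-ratio scaling gave 15 higher (6.17%) and 46 lower (18.9%) of the 243, against 5.81% and 8.42% of the 21806. With reads summed over each component, 24 of 164 components (14.6%) were higher and 9 (5.49%) lower, against 14.6% and 4.42% of 13515. Among the 82 alone in their component 13 were higher and 7 lower (8.54%), against 14.6% and 4.59% of 8145. The share called lower was above that of the larger set in each of these settings, by least with summed reads, but not at a threshold of 4-fold, where 0 of 243 against 1.01% were lower. No test of that difference was made.

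**Figure D3:**
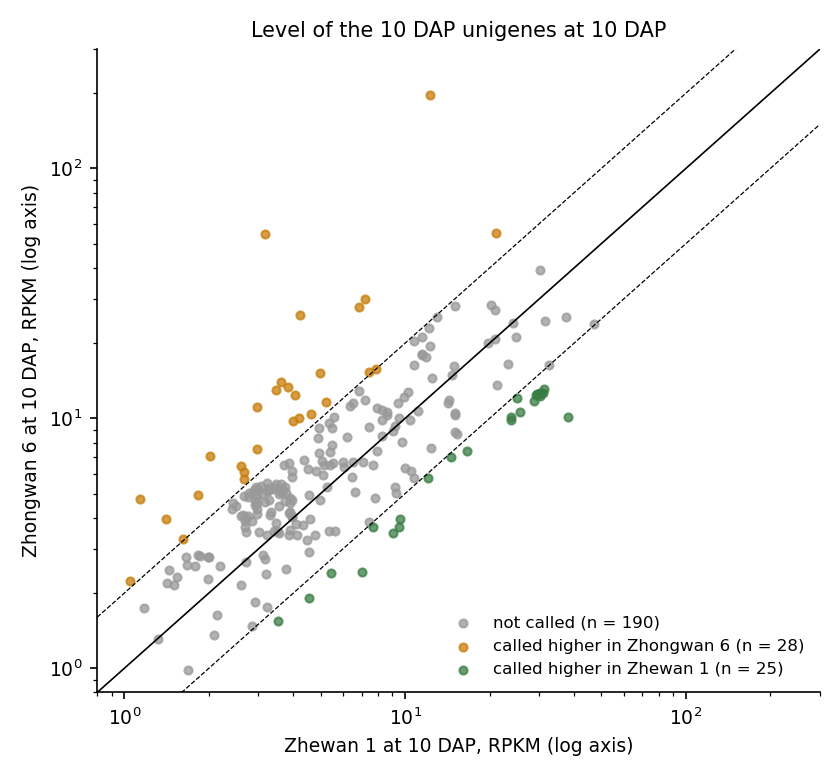
RPKM at 10 DAP in Zhewan 1 (horizontal axis) and Zhongwan 6 (vertical axis), on logarithmic axes, for the 243 unigenes, with 1 library for each cultivar. The solid line marks equal RPKM and the dashed lines 2-fold ratios. The 28 called higher in Zhongwan 6 are orange and the 25 called higher in Zhewan 1 are green. The close green cluster near an RPKM of 30 in Zhewan 1 includes the 9 sequences of comp40219_c0.

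The highest ratio was that of comp30986_c0_seq1, whose RPKM was 3.16 in Zhewan 1 and 54.6 in Zhongwan 6, a ratio of 17.3 (95% exact interval 14.4 to 20.9, counting error only). The mate in its component had 746 and 11246 reads at 10 DAP and 25 and 7 at 25 DAP, so that it stood higher in Zhongwan 6 and fell with stage as well. Second was comp19314_c0_seq1, with a ratio of 16.2 (14.1 to 18.5) and no other sequence in its component. These 2 unigenes stood apart, and the next was comp23610_c0_seq1 (1643 bp), with 347 and 2580 reads at 10 DAP, 2 and 0 at 25 DAP and a ratio of 6.12 (5.47 to 6.86). The ratio was 4.19 (3.59 to 4.92) for comp41809_c0_seq1, with 190 and 968 reads, and 4.18 (3.71 to 4.72) for comp18373_c0_seq1 (919 bp), with 330 and 1676. All 5 stayed at least 2-fold higher in Zhongwan 6 with median-ratio scaling.

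The lowest ratio was that of comp14140_c0_seq1 (1254 bp), with 2394 reads in Zhewan 1 and 775 in Zhongwan 6 at 10 DAP and none at 25 DAP. Its RPKM was 38.1 and 10.2, a ratio of 0.266 (0.245 to 0.289). It was followed by comp32961_c0_seq1 (816 bp), with 287 and 121 reads and a ratio of 0.347 (0.278 to 0.431). In comp39849_c0 the ratio was 0.382 (0.329 to 0.442) for comp39849_c0_seq3 (584 and 271 reads) and 0.387 (0.336 to 0.445) for comp39849_c0_seq8 (621 and 292 reads). The fifth was comp40219_c0_seq44 at 0.406 (0.381 to 0.433). At a threshold of 4-fold, 6 of the 243 (2.47%) were called higher in Zhongwan 6, against 1.81% of the 21806, and 0 lower. Without a test the counts at 2-fold were also 28 and 25.

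Unigenes of the same component had similar ratios between the cultivars. Reads counted on several of them can make their ratios alike, and how far they did so was not tested. In the 36 components with more than 1 unigene in the group, which hold 115 of the 243, the log2 ratios within a component spanned a median of 0.089 and at most 0.97, and under 0.5 in 32 of them. The 9 ratios of comp40219_c0 lay between -1.30 and -1.24, the 10 of comp36417_c0 between 0.64 and 0.87 and the 7 of comp32912_c0 between 0.60 and 0.72. Across the 243 the Pearson correlation of log2 RPKM between the cultivars was 0.71 and the Spearman correlation 0.74, given as a description because unigenes of a component share their source. It was 0.89 (Pearson) over the 21806. Their RPKM spanned a much wider range, which by itself can raise a correlation, so these coefficients are not directly comparable.

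**Figure D4:**
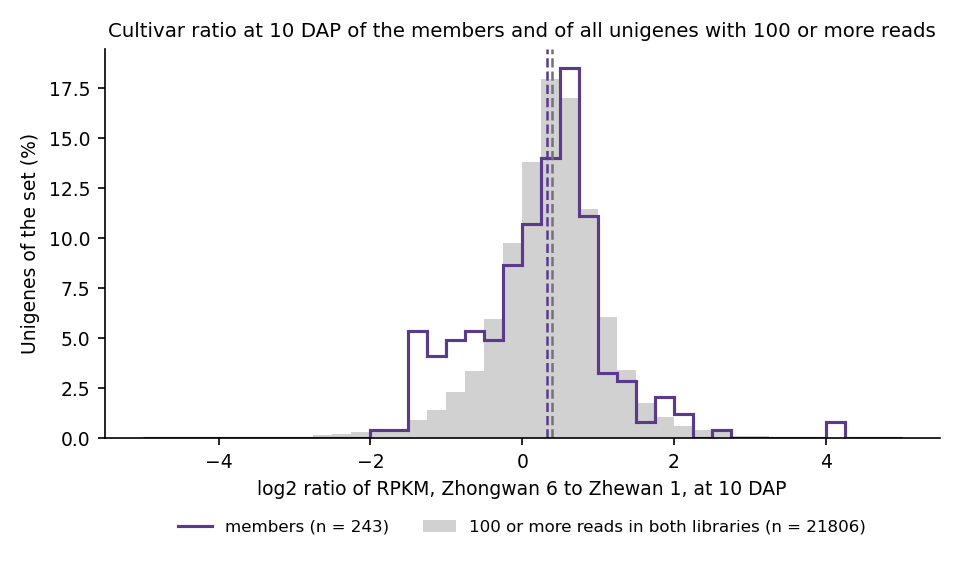
Share of unigenes (vertical axis, percent of each set) by their log2 ratio of RPKM of Zhongwan 6 to Zhewan 1 at 10 DAP (horizontal axis, bins of 0.25). The line is the 243 unigenes and the grey bars are the 21806 with at least 100 reads in both libraries, of which the 243 are part. Dashed lines mark the medians of 0.33 and 0.40. The line stands above the bars between -1.5 and -0.5, and also between 0.5 and 0.75 and in some higher bins. Sequences of the same component are counted separately, and the 9 of comp40219_c0 lie between -1.30 and -1.24.

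Each cultivar has its own pair of libraries, so the thresholds can be applied to each apart. In Zhewan 1 522 unigenes (0.676% of all) had at least 100 reads at 10 DAP and at most 3 at 25 DAP, and in Zhongwan 6 665 (0.861%) did. The 243 in both are 46.6% of the Zhewan 1 list (95% Wilson interval 42.3% to 50.8%) and 36.5% of the Zhongwan 6 list (33.0% to 40.3%). These intervals treat each unigene as a separate observation and are therefore too narrow. Of the 279 in Zhewan 1 alone, 187 missed in Zhongwan 6 only because they kept more than 3 reads at 25 DAP, 50 only because they had under 100 at 10 DAP, and 42 on both counts. Their median in Zhongwan 6 was 199 reads at 10 DAP and 37 at 25 DAP.

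For the 422 in Zhongwan 6 alone the split was the other way. In Zhewan 1 209 of them missed only by having under 100 reads at 10 DAP, 129 only by more than 3 reads at 25 DAP, and 84 on both. Their median in Zhewan 1 was 67 reads at 10 DAP and 4 at 25 DAP. At 25 DAP 97 of the 279 still had at least 100 reads in Zhongwan 6, and 82 of the 422 did in Zhewan 1. The Zhewan 1 library of 10 DAP was the smallest of the 4, and its part in the number that missed by reads at that stage was not tested. With all libraries scaled to its total, 237 unigenes met the thresholds in both cultivars, but this scaling cannot raise the counts of that library itself. Median-ratio scaling, which does raise them, gave 281. The size factor of that library was 0.707, against 1.12 to 1.16 for the others.

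The thresholds cut through a continuous range of values. Nearest inside the minimum of 100 reads were comp13399_c0_seq1 (100 and 188 reads at 10 DAP), comp43366_c0_seq1 (100 and 260) and comp14291_c0_seq1 (101 and 112), all with 0 reads at 25 DAP. Nearest outside it were comp20057_c0_seq3 (98 and 152), comp38193_c1_seq17 (98 and 119) and comp40589_c1_seq7 (98 and 242), also with 0 reads at 25 DAP. Just above the maximum at 25 DAP, 17 unigenes had 4 reads in the higher library. The most covered of these at 10 DAP were comp22246_c0_seq1, with 793 and 2079 reads at 10 DAP and 2 and 4 at 25 DAP, and comp39786_c0_seq15 and comp39786_c0_seq7, with 1250 and 1235 reads in Zhewan 1, 1045 and 1009 in Zhongwan 6, and 0 and 4 at 25 DAP for each.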

How the data were processed

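Clean reads of the 4 libraries were assembled together with Trinity by the authors, and the reads of each library were mapped back to the unigenes with Bowtie 0.12.8. The authors deposited the counts of reads on each unigene, and RPKM, which they made by dividing each count by unigene length and library total. The options for reads with several matches are not given in the sources used here, and the counts sum to more than the clean reads of each library. RPKM recomputed from the counts was within 0.1% of the deposited value in all entries except 2. Unigene length, the other column used, was taken as deposited.

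The members and lists were chosen with earlier results of these data known. Members had at least 100 reads in both libraries of 10 DAP and at most 3 in both of 25 DAP. Cultivars at 10 DAP, and stages within a cultivar, were tested on the counts with Fisher's exact test (two-sided) and Benjamini-Hochberg adjustment over all unigenes with at least 1 read, and called at an FDR of 0.001 and 2-fold. With 1 library for each group no model with replicate error could be fitted. Intervals are at 95%. Those of ratios cover counting error only and take reads as independent, so reads counted on several unigenes can make them too narrow. Those of the overlap between the cultivars' lists treat each unigene as a separate observation. A bound on a fold takes 0 reads in a library as 3. The test was checked on simulated counts with independent reads and no variation between replicates. That check does not cover reads counted on several unigenes. Alternatives changed the thresholds, scaling (size factors from 49585 unigenes), test and component treatment.

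Named unigenes are the 10 highest in mean RPKM at 10 DAP, the 5 highest and 5 lowest cultivar ratios, the 3 longest and 3 shortest, all annotated members, the 3 components with the most members, the 5 whose mates had the most reads at 25 DAP, and those nearest the thresholds. Annotation comes from the readable part of the study's Medicago truncatula table. Of the unigene identifiers, 0 match the pea reference table, and no sequences were used here. Lists were matched by words for cell division, cell wall, hormones, transcription factors, maturation and storage proteins, and photosynthesis. Tests were run in SciPy 1.17.1 with NumPy 2.4.6 and pandas 2.3.3 under Python 3.11.15, and plots were drawn with matplotlib 3.10.9.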

Additional observations from a re-analysis of the deposited data

How the results depend on the processing

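The size of the group follows its thresholds, with 410 unigenes at a minimum of 50 reads at 10 DAP, 138 at 200 reads and 106 components when reads were summed over components. The other settings gave 166 to 324 unigenes. The median log2 cultivar ratio of 0.33 at 10 DAP turned to -0.073 with median-ratio scaling, and stayed at 0.26 to 0.33 under the other scaling, pseudocount, filter and component settings. The 28 unigenes called higher in Zhongwan 6 became 15 with median-ratio scaling, 6 at 4-fold and 13 among the 82 alone in their component, the last chosen after seeing the data. The 25 called lower became 46 with median-ratio scaling, 0 at 4-fold, 9 components with summed reads, 12 with 1 unigene for each component and 7 among those alone, the last 2 settings being chosen after seeing the data. The test, its adjustment and its absence left both counts as they were. The median length, the mates' count and the overlap of the cultivars' lists moved by less than their intervals or 1.5 times. No paired analysis was possible because every test set 1 library against 1 other, with no replicate numbers shared between groups to pair. Depth limits a count of 0 to at most 3 reads.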
